A study of Homo sapiens with 12 samples.

Results

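The Hep3B libraries exposed to WWL70, a carbamate that blocks the serine hydrolase ABHD6, were compared with the Hep3B control libraries. Hep3B is an established human hepatocellular carcinoma cell line. The comparison used 2 libraries with WWL70 at 20 µM, named A1 and B1, and the 2 control libraries of the same names, 4 of the 12 libraries in the series. The other 8 came from Hep3B cells given lenvatinib at 20 µM, Hep3B cells given 20 µM WWL70 together with lenvatinib at an unstated dose, and control and lenvatinib-resistant cells of another hepatoma line, Huh7. The labels give no exposure time, do not say whether the control cells received the solvent, and do not say whether A1 and B1 were separate cultures, so the p-values measure only the spread between these libraries, which may be technical. Each value is a TPM (transcripts per 1000000, scaled for transcript length by the authors). A gene was analysed if at least 2 of the 4 libraries had 1 TPM or more, which kept 12523 of the 20307 genes in the table.

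ABHD6 is a membrane enzyme that splits monoacylglycerols, among them the endocannabinoid 2-arachidonoylglycerol, and WWL70 inactivates it by modifying its catalytic serine. RNA levels do not measure that inhibition. Some signalling systems recur in the results. NF-kB is a family of transcription factors that, once released from inhibitor proteins, switches on chemokine genes and its own inhibitors, while type I and type III interferons act through STAT proteins that bind the interferon-stimulated response element, ISRE, in front of antiviral genes. The ERK kinase cascade carries signals from growth factor receptors and induces its own brakes, such as the phosphatase DUSP6.

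The promoters of 5 genes that passed the test are shown because they hold motifs of NF-kB or of the interferon response. Each sequence is the 250 bases before the RefSeq gene start on GRCh38.p14, 5′ to 3′ on the gene's own strand. Capitals mark matches, on either strand, to the ISRE motif (GAAA, any 2 bases, GAAA) or the NF-kB motif (GGG, any 3 bases, TTCC).
CXCL10, chr4:76023498-76023747, minus strand: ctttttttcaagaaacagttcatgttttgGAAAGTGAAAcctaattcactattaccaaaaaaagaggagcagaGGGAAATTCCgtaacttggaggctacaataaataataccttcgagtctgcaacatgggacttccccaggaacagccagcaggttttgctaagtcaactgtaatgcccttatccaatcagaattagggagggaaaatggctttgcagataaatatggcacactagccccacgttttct
IFIT3, chr10:89327747-89327996, plus strand: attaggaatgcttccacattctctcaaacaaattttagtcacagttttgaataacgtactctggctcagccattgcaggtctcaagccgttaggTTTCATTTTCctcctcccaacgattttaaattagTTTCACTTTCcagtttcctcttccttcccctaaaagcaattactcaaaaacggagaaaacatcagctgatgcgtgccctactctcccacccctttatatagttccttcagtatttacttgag
CXCL1, chr4:73869143-73869392, plus strand: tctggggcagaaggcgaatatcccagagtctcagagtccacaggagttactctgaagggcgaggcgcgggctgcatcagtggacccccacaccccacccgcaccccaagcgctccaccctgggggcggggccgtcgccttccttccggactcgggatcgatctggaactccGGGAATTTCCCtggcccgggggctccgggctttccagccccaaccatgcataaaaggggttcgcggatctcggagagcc
CXCL5, chr4:73998678-73998927, minus strand: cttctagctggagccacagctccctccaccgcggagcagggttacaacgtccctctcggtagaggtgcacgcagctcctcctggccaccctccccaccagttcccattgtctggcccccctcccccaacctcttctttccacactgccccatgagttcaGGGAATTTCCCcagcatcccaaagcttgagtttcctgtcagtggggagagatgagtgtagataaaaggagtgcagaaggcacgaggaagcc
IL32, chr16:3065153-3065402, plus strand: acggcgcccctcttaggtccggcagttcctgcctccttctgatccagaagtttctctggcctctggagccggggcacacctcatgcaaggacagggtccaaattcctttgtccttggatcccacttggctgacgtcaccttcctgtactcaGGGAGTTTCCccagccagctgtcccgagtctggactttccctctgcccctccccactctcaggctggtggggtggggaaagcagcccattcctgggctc
The CXCL10 window held 1 match to each motif, with the ISRE match starting 221 bases and the NF-kB match 177 bases before the gene start. IFIT3 held 2 ISRE matches on the other strand, starting 156 and 122 bases before the gene start. In CXCL1 and CXCL5 the same 11 letters, GGGAATTTCCC, matched NF-kB on both strands with overlap, from 79 and 91 bases before the start. IL32 held 1 NF-kB match, 99 bases before its start. NF-kB matches stood in 8 of the 10 windows found for the 13 tested NF-kB chemokines and cytokines, and in 6.56% of the 10120 windows found for the tested genes. For the 30 tested interferon-stimulated genes, 22 windows were found and 15 held an ISRE match, against 2.28% of the windows of all tested genes. Both lists were drawn up from genes known to answer NF-kB or interferon, so these high shares do not bear on the response to WWL70. The genes that fell as a whole were nearer the background, with NF-kB matches in 8 of 87 windows (9.2%) and matches to TGANTCA, the AP-1 motif, in another 8 of 87 (9.2%), against 3.59% of all tested windows for AP-1. A match is a run of letters and not a measured binding site.

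The 4 libraries were alike in the number of genes listed and in replicate spread. They listed 14749 to 14883 genes above 0, and their A1 and B1 values differed by a median of 0.114 (log2) in the control and 0.135 with WWL70, against 0.249 with lenvatinib and 0.815 with the combination. Mitochondrially encoded genes took 15.9% and 16.45% of the TPM in the control libraries and 18.29% and 18.62% with WWL70. Hepatocyte markers were present, with albumin (ALB) at 12495 and 11661 TPM in the control and 10422 and 13338 with WWL70. Not all held their level. The keratin KRT18 fell from 767 and 756 TPM to 565 and 606 TPM (limma adjusted p = 0.0323), and SERPINA1, described below, fell as well. KRT8 was at 928 and 927 TPM in the control and 677 and 779 with WWL70 without passing (limma adjusted p = 0.0712). The fetal liver protein AFP was at 53.8 and 46.8 TPM in the control and 10.1 and 35.6 with WWL70 and did not pass the test. Of 21 markers of other cell types, 10 were under 1 TPM in all 4 libraries, and the summed TPM of the list was 157.9 and 174.9 in the control and 175.6 and 162.9 with WWL70. Most of that sum came from a pair of myeloid markers. LYZ fell from 53.6 and 59.0 TPM to 22.8 and 29.7 TPM, while CD68 was at 69.9 and 87.04 TPM in the control and higher, at 124 and 110.2, with WWL70 without passing (0.58, limma adjusted p = 0.0652). Without both, the sum was 34.4 and 28.8 TPM in the control and 28.4 and 22.97 with WWL70. The leukocyte marker PTPRC reached at most 0.043 TPM, and CD3E of T cells and VWF of endothelium were listed at 0.

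With WWL70, 140 of the 12523 genes passed the threshold of an adjusted p under 0.05 (limma with a trend of the spread with level, and Benjamini-Hochberg adjustment), which is 1.12% of all genes tested. Before adjustment, 2110 genes (16.8%) had a p under 0.05. Of the 140, 27 rose (0.216%) and 113 fell (0.902%). A change of at least 1 on the log2(TPM + 1) scale was seen in 11 of the rises and 22 of the falls. No called gene had overlapping groups, while the groups did not overlap for 49.5% of all tested genes, 22.5% of them higher with WWL70 and 27.0% lower. The called genes had a median level of 60.4 TPM, above the 25.2 TPM of all genes tested. The number of calls depended on the filter and on how the spread was estimated. Without the filter on low values it was 1, a gene not among the 140. It was 0 in limma without the trend (1808 genes at an unadjusted p under 0.05) and 2 with the spread of all 12 libraries. Leaving out WWL70 B1 raised it to 477, and leaving out control A1 gave 90. A further limit is that 5 rises passed the filter only through the WWL70 libraries, namely OASL, IFIT3, the read-through locus P3R3URF-PIK3R3, NPIPA2 of a multicopy family, and the unnamed gene ENSG00000283782. The last 3 of these genes are named after their values were seen.

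**Figure D1:**
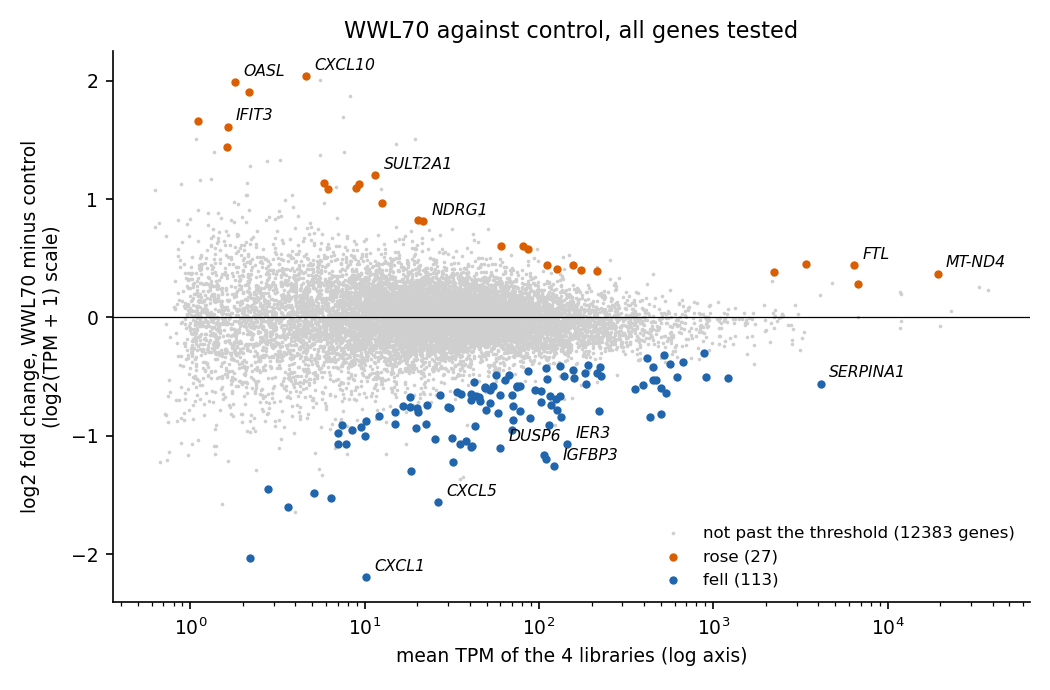
Each point is 1 of the 12523 genes tested, with its mean TPM over the 4 libraries on a log axis and its log2 fold change of WWL70 minus control on the log2(TPM + 1) scale. The 27 genes that rose lie above the line at 0 and the 113 that fell below it, with CXCL10 the largest rise at 2.04 and CXCL1 the largest fall at −2.20.

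Interferon-stimulated genes gave 3 of the rises. Among these, OASL and CXCL10 were picked in advance as markers of the WWL70 response, with earlier results of these data known. CXCL1 and IER3, described below, were picked in the same way, so the calls of these genes lend no separate support to their lists. OASL, an antiviral protein related to the oligoadenylate synthetases (chromosome 12, 121019111 to 121039242), was at 0.116 and 0.139 TPM in the control libraries and 3.31 and 3.65 TPM with WWL70. The control libraries were close to 0 and both WWL70 libraries well above them. Its log2 fold change was 1.99 (SE 0.24, limma adjusted p = 0.0109), a scale that understates the change of so low a gene. CXCL10, a chemokine that draws T cells (chromosome 4, 76021117 to 76023497), was at 1.14 and 1.21 TPM in the control and 7.13 and 8.84 TPM with WWL70, a change of 2.04 (SE 0.20, limma adjusted p = 0.00844). IFIT3, an antiviral protein of the IFIT family, was at 0.255 and 0.337 TPM in the control and 2.60 and 3.35 TPM with WWL70. Its change of 1.61 passed (limma adjusted p = 0.0310), though without control A1 it was 1.57 with a limma adjusted p of 0.0502.

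The rest of the interferon list did not move as a block. Of its 30 tested members, 3 rose, against 0.216% of all tested genes, and none fell. The median change was 0.06 against −0.01 for all genes. OASL and IFIT3 were tested only through their WWL70 libraries, so these members could only come out higher. The groups did not overlap for 11 of the 30 members that were higher and 7 that were lower, against 22.5% and 27.0% of all tested genes. IFIT2, from the same family as IFIT3, was at 0.931 and 2.02 TPM in the control and 4.93 and 5.21 with WWL70, a change of 1.33 that missed the threshold (limma adjusted p = 0.0586). IFIT1 (0.88) and ISG15, a ubiquitin-like modifier (0.56), were higher on the log2 scale and did not pass. Other members lay lower: IFITM3, which blocks virus entry, was at 406 and 442 TPM in the control and 338 and 326 with WWL70 (limma adjusted p = 0.0551), and BST2, which tethers budding virus, had a change of −0.83 (limma adjusted p = 0.153). The signalling factors STAT2 (0.08) and IRF9 (−0.02) were close to 0. MX1, an antiviral GTPase, was at 1.19 and 1.04 TPM in the control and 1.32 and 1.12 with WWL70. All 21 interferon ligand genes in the table, IFNB1 and IFNL1 among them, were listed at 0 in the 4 libraries.

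NF-kB chemokines were the list with the largest median change. Of 13 tested members 3 fell, against 0.902% of all tested genes, none rose, and the median was −1.15. In 12 of the 13, both WWL70 libraries lay below both control libraries, against 27.0% of all tested genes. CXCL1, which attracts neutrophils (chromosome 4, 73869393 to 73871242), was at 19.8 and 14.8 TPM in the control and 2.002 and 4.20 TPM with WWL70. Both WWL70 libraries lay far below the control libraries, and the log2 fold change was −2.20 (SE 0.27, limma adjusted p = 0.0125). CXCL5, another neutrophil chemokine (chromosome 4, 73995642 to 73998779), fell by 1.56 from 44.1 and 35.6 TPM to 11.2 and 14.5 TPM (limma adjusted p = 0.00874). IL32, a proinflammatory cytokine (chromosome 16, 3065297 to 3082192), fell by 1.23 from 47.1 and 43.0 TPM to 17.01 and 20.5 TPM (limma adjusted p = 0.00874). CXCL10 is itself an NF-kB target in other settings and moved the other way from these chemokines.

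The remaining chemokines lay lower without passing. CXCL6 was at 9.77 and 5.72 TPM in the control and 1.53 and 2.61 with WWL70 (limma adjusted p = 0.0531), and CCL20, which attracts dendritic and T helper cells, was at 57.7 and 43.0 TPM against 13.5 and 25.8 (limma adjusted p = 0.0586). CXCL3 (−1.21), LTB (−1.15), CXCL8 (−0.88) and CXCL2 (−0.82) also lay lower on the log2 scale. CXCL1, CXCL2 and CXCL3 are close copies of one another, so reads may have been split between them. IL11 (0.10) was the 1 member not lower.

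Among 20 NF-kB feedback and survival genes, 2 fell, against 0.902% of all tested genes. IER3, an early response gene that modulates survival (chromosome 6, 30743199 to 30744554), was at 188 and 204 TPM in the control and 91.7 and 93.9 with WWL70. Its replicates were tight and the change of −1.07 (SE 0.07) had a limma adjusted p of 0.00393. ICAM1, an adhesion molecule for leukocytes, fell by 0.78 from 157 and 163 TPM to 94.7 and 90.9 TPM (limma adjusted p = 0.00725). The subunit NFKB1 was at 25.7 and 25.4 TPM in the control and 15.8 and 17.4 with WWL70 and missed the threshold (limma adjusted p = 0.0599). NFKBIA (−0.20) and TNFAIP3 (−0.28), inhibitors that NF-kB induces to switch itself off, did not pass, and the list median was −0.20. UBD, the ubiquitin-like protein FAT10 that inflammatory cytokines induce, fell by 1.19 from 161 and 143 TPM to 56.7 and 76.3 TPM (limma adjusted p = 0.0106).

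**Figure D2:**
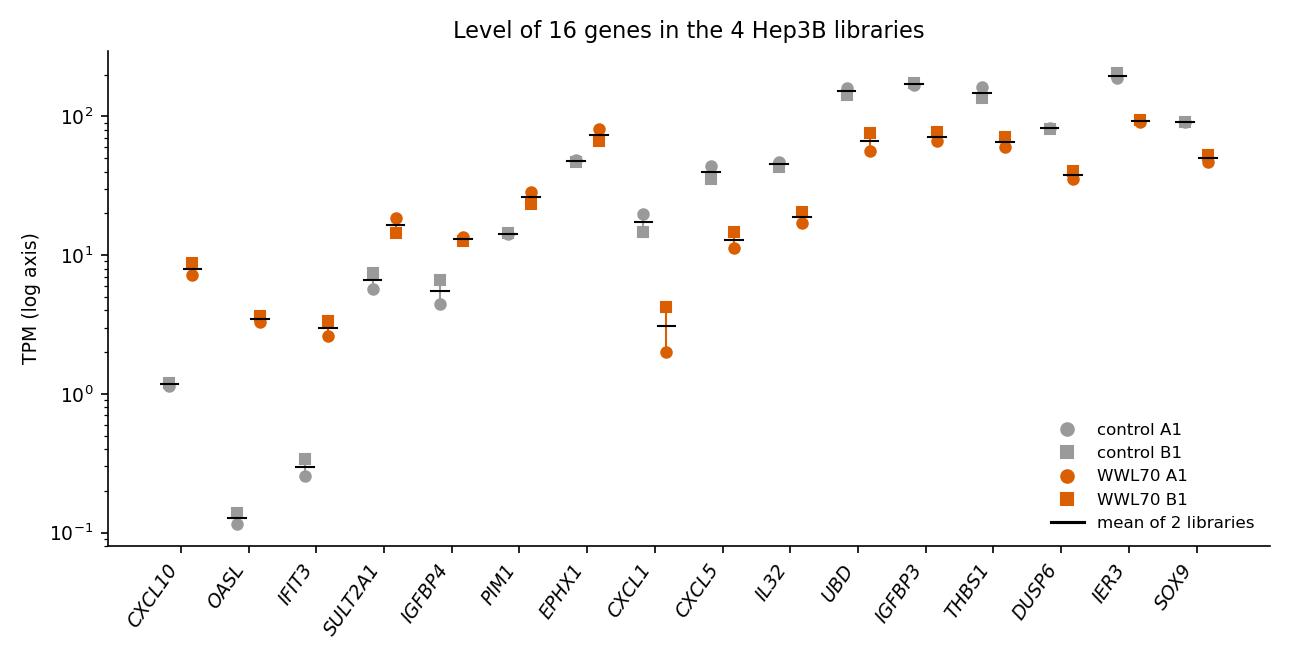
TPM of 16 called genes on a log axis, 1 point per library, with grey for control, orange for WWL70, circles for A1, squares for B1 and a black bar for the mean of 2 libraries. In each gene the orange and grey points are apart, as in OASL with 0.116 and 0.139 TPM against 3.31 and 3.65 TPM.

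ERK feedback genes were mostly lower. Of 16 tested members 2 fell, against 0.902% of all tested genes, none rose, and the median was −0.44. In 13 of the 16 both WWL70 libraries lay below both controls, against 27.0% of all tested genes. DUSP6, the phosphatase that switches off ERK (chromosome 12), was at 83.1 and 81.0 TPM in the control and 35.3 and 40.4 TPM with WWL70. The change of −1.10 (SE 0.10) had a limma adjusted p of 0.00616. ETV4, a transcription factor that ERK signalling induces, fell by 0.65 from 47.0 and 53.4 TPM to 30.1 and 33.3 TPM (limma adjusted p = 0.0397). Of those that did not pass, DUSP5 (−0.88), ETV5 (−0.68), CCND1, which encodes cyclin D1 (−0.48), and the pathway inhibitor SPRY2 (−0.44) were among the lower members. SPRED2, another pathway inhibitor, was at 68.3 and 72.7 TPM in the control and 74.1 and 66.7 with WWL70.

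Immediate early genes divided. Of 21 tested members 3 fell, against 0.902% of all tested genes, none rose, and the median was −0.19. CCN2, a matrix-associated growth factor also listed as a YAP target, was at 149 and 150 TPM in the control and 90.5 and 68.8 TPM with WWL70, a change of −0.91 (limma adjusted p = 0.0179). The nuclear receptor NR4A1 fell by 0.93 from 11.8 and 13.97 TPM to 6.19 and 6.33 TPM, and IER2 fell by 0.65 from 40.5 and 47.2 TPM to 27.3 and 27.8 TPM. Without control B1 the limma adjusted p of NR4A1 was 0.127 and that of IER2 0.132, and without WWL70 A1 they were 0.0645 and 0.061. MYC (−0.38) and EGR1 (−0.35) were lower without passing, FOS (−0.02) and ATF3 (−0.04) were close to 0, and JUNB (0.27) and ZFP36, which destabilises cytokine mRNA (0.41), were higher without passing.

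Some receptors for the growth factors that feed ERK fell as well. Of 15 tested FGF, VEGF and PDGF receptors and ligands, 3 fell, against 0.902% of all tested genes. None rose, and the median was −0.33. FGFR2 was at 95.8 and 87.1 TPM in the control and 39.2 and 56.1 TPM with WWL70, a change of −0.95 (limma adjusted p = 0.0370) that did not pass under any of the 3 other scalings. PDGFRA fell by 0.76, from 22.7 and 23.3 TPM to 12.8 and 13.5 TPM, with limma adjusted p-values of 0.0759, 0.0784 and 0.055 without control A1, control B1 and WWL70 A1. PDGFRB fell by 0.91, from 10.4 and 9.53 TPM to 5.13 and 4.53 TPM, and did not pass when any 1 of the 4 libraries was left out (limma adjusted p of 0.0524 to 0.148). PDGFRB is also a marker of pericytes, and RGS5, another pericyte marker, was at 3.80 and 2.50 TPM in the control and 3.19 and 2.99 with WWL70, so that its groups overlapped. FGFR1 (−0.48), FGFR3 (−0.33), VEGFC (−0.71) and FGF21 (−0.88) were lower without passing, and PDGFA (0.25) and VEGFB (0.24) were higher without passing. FGFR4, the main FGF receptor of hepatocytes, was at 252 and 263 TPM against 245 and 245. Its co-receptor KLB was at 36.3 and 36.1 against 34.7 and 38.3.

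**Figure D3:**
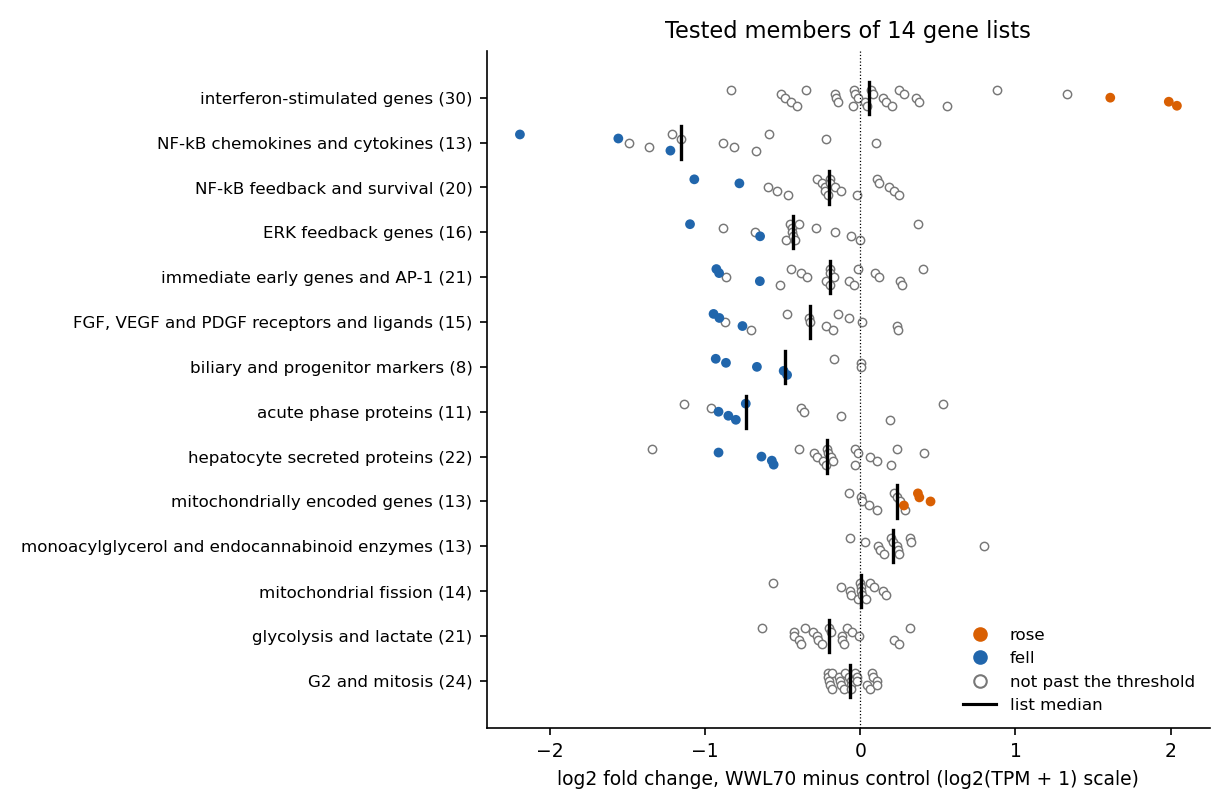
Log2 fold changes of WWL70 minus control, on the log2(TPM + 1) scale, for the tested members of 14 gene lists, with the number tested in brackets. Filled points passed the threshold, open points did not, and the black line is the list median, which is −1.15 for the NF-kB chemokines and 0.06 for the interferon-stimulated genes.

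Biliary and progenitor markers had the highest share of calls of any list. Of 8 tested members 5 fell, against 0.902% of all tested genes, none rose, and the median was −0.48. SOX9, the transcription factor of bile duct and progenitor cells, was at 91.1 and 91.6 TPM in the control and 46.7 and 52.8 TPM with WWL70 (−0.87, limma adjusted p = 0.00932). CDH6, a cadherin, fell by 0.93 from 25.1 and 27.4 TPM to 13.3 and 13.2 TPM. PROM1, the surface protein CD133, fell by 0.67 from 153 and 133 TPM to 85.6 and 93.4 TPM. The bile duct keratin KRT19 fell by 0.47, from 216 and 213 TPM to 147 and 163, and the transcription factor SOX4 by 0.49, from 166 and 160 TPM to 122 and 109. Without control A1 the limma adjusted p was 0.0785 for KRT19 and 0.0941 for SOX4, and without control B1 it was 0.0558 for KRT19. EPCAM and CD24, surface markers of the same cells, were at 608 and 537 TPM and at 961 and 861 TPM in the control, against 592 and 553 and 949 and 881 TPM with WWL70. In bulk RNA, fewer cells of a type and less RNA per cell cannot be told apart.

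Among 11 tested acute phase proteins, 4 fell, against 0.902% of all tested genes, and none rose, with a median of −0.74. C4BPA, a complement inhibitor, was at 73.4 and 74.4 TPM in the control and 42.2 and 41.7 TPM with WWL70 (−0.80, limma adjusted p = 0.00932). CP, the copper carrier ceruloplasmin, fell by 0.85 from 116 and 113 TPM to 58.0 and 68.6 TPM. SERPINA3, a protease inhibitor that is also in the list of secreted proteins, fell by 0.91 from 53.9 and 59.2 TPM to 27.8 and 31.3 TPM. ORM2 fell by 0.74 from 146 and 148 TPM to 80.5 and 95.04 TPM, although its near copy ORM1 could share reads with it. The fibrinogen chain FGG ran the other way, at 133 and 111 TPM in the control and 169 and 183 with WWL70, and missed the threshold (limma adjusted p = 0.0518).

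Most other secreted proteins of the hepatocyte did not pass. Of 22 tested, 4 fell, against 0.902% of all tested genes, and the median was −0.21. SERPINA1, the protease inhibitor alpha-1-antitrypsin, fell by 0.56 from 4836 and 4990 TPM to 3374 and 3294 TPM (limma adjusted p = 0.00616). ITIH2, which stabilises hyaluronan, fell by 0.64 from 651 and 659 TPM to 391 and 452 TPM, and VTN, the adhesive plasma protein vitronectin, by 0.57 from 462 and 484 TPM to 288 and 350 TPM. VTN did not pass under any of the 3 other scalings. APOB was at 1447 and 1349 TPM in the control and 1055 and 1355 with WWL70, and AMBP at 1146 and 1193 against 1114 and 1173. Hepatic transcription factors had 0 calls among 18 (5 at an unadjusted p under 0.05), with HNF4A at 136 and 130 TPM in the control and 153 and 153 with WWL70.

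The other large falls included secreted, matrix and transport proteins. IGFBP3, which binds insulin-like growth factors, was at 169 and 174 TPM in the control and 66.2 and 77.0 TPM with WWL70. Its change of −1.26 (SE 0.09) had a limma adjusted p of 0.00393, the smallest together with that of IER3. THBS1, the matrix protein thrombospondin, fell by 1.16 from 162 and 135 TPM to 60.4 and 70.7 TPM (limma adjusted p = 0.00844). SLC6A14, an amino acid transporter, fell by 1.30 from 28.6 and 24.6 TPM to 8.81 and 11.8 TPM. APBA1, an adaptor for vesicle proteins, fell by 1.49 from 10.1 and 5.97 TPM to 2.35 and 1.95 TPM. CHODL (6.79 and 5.12 TPM against 1.49 and 1.07) and CCDC198 (13.05 and 7.13 TPM against 2.85 and 2.58) fell by 1.604 and 1.53. Without control A1 the limma adjusted p rose to 0.102 for APBA1, 0.0614 for CHODL and 0.0832 for CCDC198.

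The other large rises included metabolic enzymes, a kinase and a secreted binding protein. SULT2A1, the sulfotransferase for steroids and bile acids, was at 5.71 and 7.45 TPM in the control and 18.5 and 14.4 TPM with WWL70, a change of 1.20 (limma adjusted p = 0.0310). EPHX1, the microsomal epoxide hydrolase, rose by 0.61 from 48.7 and 47.1 TPM to 80.7 and 66.9 TPM, and PIM1, a survival kinase that STAT proteins induce, by 0.82 from 14.1 and 14.4 TPM to 28.7 and 23.5 TPM. IGFBP4, another binding protein of insulin-like growth factors, rose by 1.12 from 4.46 and 6.64 TPM to 13.5 and 12.7 TPM. NDRG1, which hypoxia and stress induce, rose by 0.81 from 16.9 and 13.8 TPM to 25.2 and 30.3 TPM. PTCD3, a protein of the mitochondrial ribosome, rose by 0.61 from 60.7 and 67.6 TPM to 93.4 and 103 TPM. SMIM1, a small membrane protein of red cells (1.09), and ANKRD29 (1.09) rose as well. Each of these 8 genes lost its call when 1 library was left out. Without control A1 this held for EPHX1, IGFBP4, PIM1, PTCD3 and SMIM1 (limma adjusted p of 0.0568 to 0.073), and without control B1 for ANKRD29, EPHX1 and NDRG1 (0.0736 to 0.0942). Without WWL70 A1 it held for SULT2A1, IGFBP4, SMIM1, ANKRD29, PIM1 and EPHX1 (limma adjusted p of 0.0618 to 0.0784), and without WWL70 B1 for NDRG1 (0.0582).

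Mitochondrially encoded genes rose in part. These genes encode core subunits of the respiratory chain and the ATP synthase. Of the 13, 4 rose, against 0.216% of all tested genes, none fell, and the median was 0.24. MT-ND4L was at 2896 and 2868 TPM in the control and 3849 and 4041 TPM with WWL70 (0.45, limma adjusted p = 0.0106). MT-ND4, also of complex I, rose by 0.37 from 16565 and 17148 TPM to 22238 and 21360 TPM. MT-ND6 rose by 0.38, from 1925 and 1967 TPM to 2623 and 2446, and MT-CYB of complex III by 0.28, from 6014 and 6247 TPM to 7409 and 7483. MT-CO3 (−0.08), MT-ND1 (0.00) and MT-ND3 (0.01) had overlapping groups. MT-ND4L and MT-ND4 overlap in the genome and MT-ND6 lies on the opposite strand, and how their reads were assigned is not given in the sources used here. Without control A1 the limma adjusted p was 0.0766 for MT-ND4, 0.0764 for MT-ND6 and 0.219 for MT-CYB, and without control B1 it was 0.107 for MT-CYB. Under quantile normalization, which forces the same distribution on each library, the change of MT-CYB was 0.04 (limma adjusted p = 0.499). MT-ND6 also lost its call there (limma adjusted p = 0.0647). With median-ratio scaling MT-ND4 and MT-CYB did not pass (limma adjusted p of 0.059 and 0.0994), and MT-ND4L passed under both scalings. Nuclear genes of oxidative phosphorylation had 0 calls among 29 (4 at an unadjusted p under 0.05). The share of mitochondrial RNA in each library, given above, is made up of these same 13 genes. Its higher value with WWL70 therefore restates their rise and is not a separate result.

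**Figure D4:**
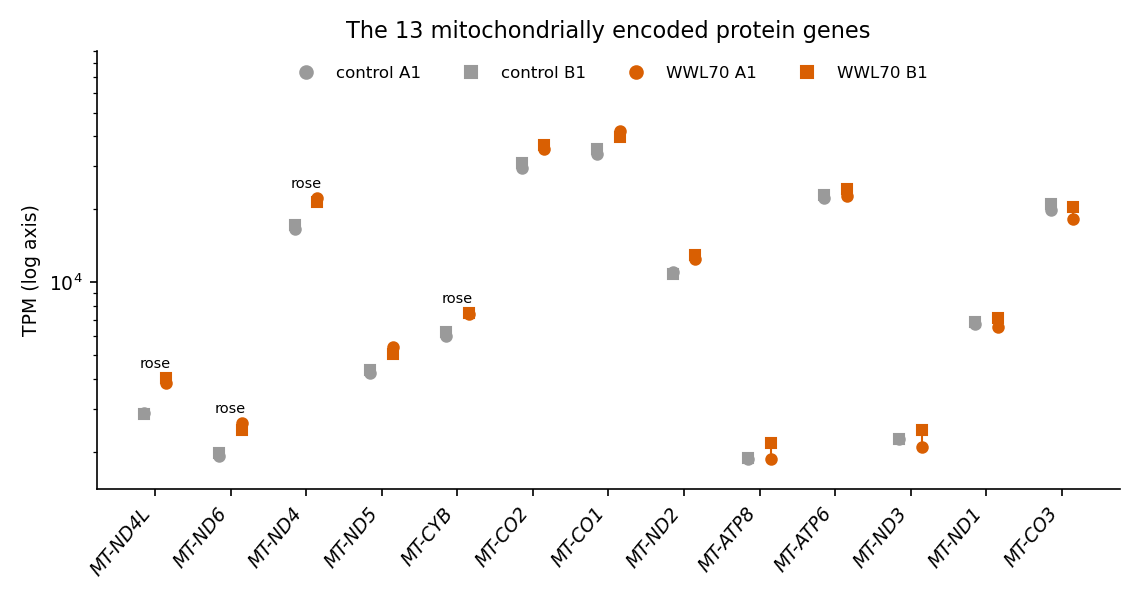
TPM on a log axis of the 13 mitochondrially encoded protein genes in the 4 libraries, ordered by log2 fold change. The 4 genes marked as having risen have both WWL70 points above both control points, as in MT-ND4L with 3849 and 4041 TPM against 2896 and 2868.

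ABHD6 mRNA itself was measured in all 4 libraries. The gene (chromosome 3, 58237506 to 58295693) was at 8.23 and 7.93 TPM in the control and 10.7 and 10.1 TPM with WWL70. Both WWL70 libraries lay above both controls, and the change of 0.33 (SE 0.14) did not pass (limma adjusted p = 0.300). None of the 13 tested members of the list of monoacylglycerol and endocannabinoid enzymes passed (2 at an unadjusted p under 0.05). In 7 of the 13 both WWL70 libraries lay above both controls, against 22.5% of all tested genes. ABHD12, which also hydrolyses 2-arachidonoylglycerol, was at 70.3 and 69.0 TPM in the control and 85.9 and 79.7 with WWL70 (0.25). The synthases that make 2-arachidonoylglycerol, DAGLA (−0.07) and DAGLB (0.24), and the amidase FAAH (0.32), which breaks down anandamide, did not pass. DGAT2, which completes triglyceride synthesis, had the largest value in the list at 0.80 (limma adjusted p = 0.167), and its partner enzyme DGAT1 was at 0.21. NAPEPLD (0.12) and NAAA (0.20), which make and break down acylethanolamides, did not pass, nor did the lipases PNPLA2 (0.25) and LIPE (0.16), the lipase activator ABHD5 (0.03) or MGST1, a microsomal glutathione transferase (0.12).

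No member passed in 25 lists, with 422 tested members, 78 of them at an unadjusted p under 0.05, and medians from −0.22 to 0.21. They include mitochondrial fission (14 tested, median 0.00), mitochondrial fusion and cristae (15, −0.03), mitophagy and autophagy (19, 0.08), glycolysis and lactate (21, −0.20), mitosis (24, −0.07), DNA replication (24, −0.06) and cytosolic ribosomal proteins (31, −0.03). Of the 140 called genes, 55 were in at least 1 of the 54 lists and 85 in none. Among called genes named after their values were seen, the WNT inhibitor DKK1 fell by 0.81 from 671 and 606 TPM to 365 and 360 TPM, the ligand TGFB2 by 0.998 from 14.3 and 13.1 TPM to 7.45 and 5.38 TPM, and the cell cycle inhibitor CDKN2B by 1.02 from 41.5 and 43.5 TPM to 22.2 and 18.8 TPM. The ferritin light chain FTL rose by 0.44 from 5380 and 5562 TPM to 7262 and 7584 TPM, and the bile salt and conjugate exporter ABCC3 by 0.58 from 66.1 and 71.9 TPM to 108 and 98.5 TPM.

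The same difference was measured a second time in the presence of lenvatinib, an inhibitor of receptor tyrosine kinases, by comparing WWL70 plus lenvatinib with lenvatinib alone, which shares no library with the comparison above. The lenvatinib dose of the combination is not given, so lenvatinib may not be matched between these groups. Combination A1 stood apart from the other Hep3B libraries, with a median of 2.96 TPM against 6.32 in combination B1. In this comparison 1 gene passed (0.00799% of those tested; limma on the 8 Hep3B libraries, 783 genes, 6.25%, at an unadjusted p under 0.05), and in the difference between the WWL70 changes with and without lenvatinib 0 genes passed (0.00%; 312 genes, 2.49%, at an unadjusted p under 0.05). Without combination B1, 8095 and 6773 genes passed, and without combination A1, 17 and 0. The 1 gene was the sulfotransferase SULT1A4, at 39.4 and 31.6 TPM with lenvatinib and 1.57 and 1.74 TPM with the combination (−3.77, limma adjusted p = 0.0235), a gene with a near-identical copy that may share its reads.

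Of the 113 genes that fell with WWL70 alone, 97 had a lower mean log2 value with the combination than with lenvatinib, as did 76.4% of all tested genes. In the B1 libraries alone the counts were 89 of 113 and 58.7%. Of the 27 that rose, 11 had a higher mean, against 23.6% of all genes, and in the B1 libraries 15 did, against 41.2%. IER3 was at 106 and 108 TPM with lenvatinib and 43.1 and 50.5 TPM with the combination, a log2 difference of −1.18 beside −1.07 without lenvatinib. IGFBP3 was at 107 and 96.8 TPM against 25.2 and 35.98, a difference of −1.72 beside −1.26. DUSP6, already low with lenvatinib at 8.94 and 14.7 TPM, was at 1.11 and 4.402 with the combination. None of these 3 genes passed the test, and a lower mean with the combination was also seen in 76.4% of all tested genes. All tested genes had a median difference of −0.32 with lenvatinib present and −0.01 without it, so the 2 sets of values do not share a baseline.

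OASL, CXCL10 and CXCL1 differed by less with lenvatinib present, by amounts that did not pass the test of the difference. OASL was at 0.140 and 0.272 TPM with lenvatinib and 1.11 and 1.14 with the combination, a difference of 0.82. CXCL10 was at 5.16 and 4.29 TPM with lenvatinib, above the control libraries, and at 2.58 and 5.70 with the combination, so that the groups overlapped. CXCL1 was at 32.9 and 27.3 TPM against 17.8 and 23.1, a difference of −0.54 beside −2.20 without lenvatinib. The difference between the 2 changes was −1.17 for OASL, −2.26 for CXCL10 and 1.65 for CXCL1, and none passed over all genes (limma adjusted p = 0.826 for each). PIM1, which rose with WWL70 alone, was at 10.7 and 13.2 TPM with lenvatinib and 7.56 and 9.41 with the combination, and that difference of −1.27 between the changes did not pass either (limma adjusted p = 0.826). ABHD6 was at 7.70 and 7.97 TPM with lenvatinib and 3.18 and 7.35 with the combination.

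**Figure D5:**
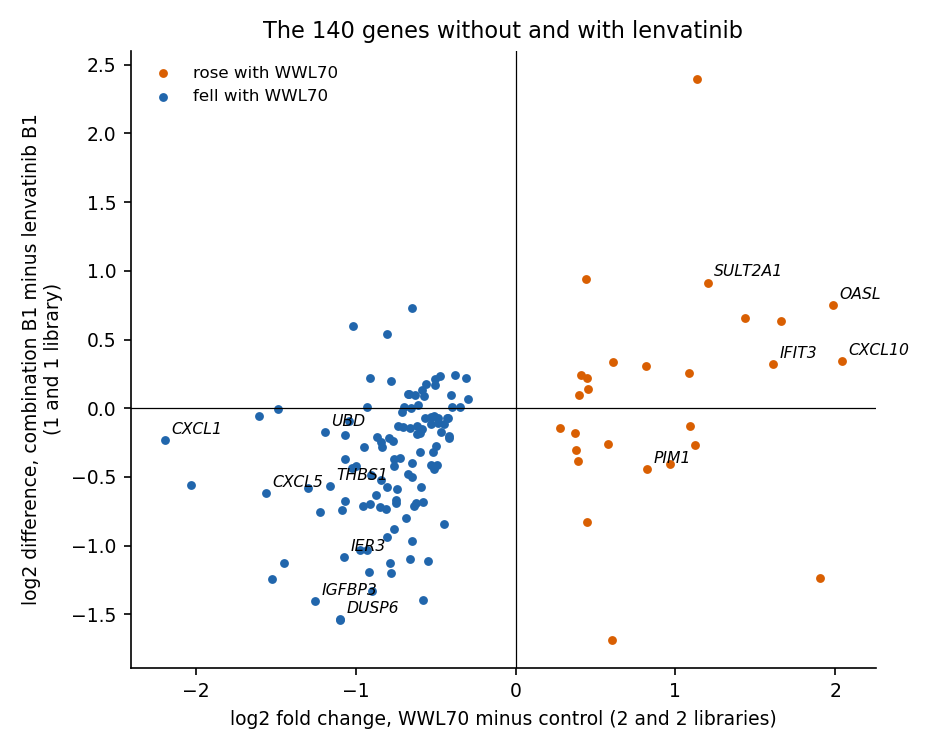
Each point is 1 of the 140 called genes, with its log2 fold change of WWL70 minus control (2 and 2 libraries) on the x axis and the log2 difference of combination B1 minus lenvatinib B1 (1 and 1 library) on the y axis, both on the log2(TPM + 1) scale. Of the genes that fell with WWL70, 89 of 113 lie below 0 on the y axis, and of those that rose 15 of 27 lie above it.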

How the data were processed

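Messenger RNA of 12 samples of the Hep3B and Huh7 lines was captured on beads, fragmented and sequenced, per the labels' protocols. The submitters' processing notes name fastp 0.18.0 and the build hg38. No source used here names the aligner, the quantification tool, the annotation or the strand setting. TPM for 20307 genes were deposited by the authors in 1 table, whose columns each summed to 1000000. TPM holds no depth, so no counting interval is given, and 1 abundant gene that changes shifts the share of all others.

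Samples were grouped by the treatment in the labels. Values were analysed as log2(TPM + 1), and every fold change is on that scale. limma 3.58.1 in R 4.3.3, with a trend of the spread with level and 1 mean for each group, was fitted to the 4 libraries of the main comparison (2 residual degrees of freedom, prior 6.02), so that the lenvatinib libraries did not enter its spread. The 8 Hep3B libraries were fitted for the other 2 comparisons (4 residual degrees of freedom, prior 2.86). P-values were adjusted by Benjamini-Hochberg over all 12523 genes of each of the 3 comparisons. The median standard error was 0.124 (log2). With 2 libraries a side, the smallest two-sided p of an exact permutation test is 0.333, so none was run. The script was tested on simulated data.

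The members and the 54 gene lists (1021 genes) were chosen with earlier results of these data known, and the NF-kB motif was narrowed after the files were read. Named genes were ABHD6, OASL, CXCL1, CXCL10 and IER3; the 10 largest rises and 10 largest falls with a mean of at least 5 TPM in the higher group, groups that did not overlap and a proper symbol; up to 5 members of each list with at least 3 calls in 1 direction, for at most 10 lists; and the endocannabinoid enzymes with a mean of at least 1 TPM. Other members are given with their lists, and further genes are said to be named after their values were seen. A few genes that fall under this rule are counted but not reported here. Gene coordinates are from GENCODE 29 (GRCh38), 1-based, and promoters from RefSeq (GRCh38.p14). Alternatives covered pseudocounts, filters, scalings, the trend, the spread, a replicate block and each library left out.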

Additional observations from a re-analysis of the deposited data

How the results depend on the processing

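The main comparison gave 140 calls, 27 up and 113 down. Total, up and down were 125, 21 and 104 with a pseudocount of 0.1, 134, 24 and 110 with a pseudocount of 5, and 179, 34 and 145 with a TPM of at least 5. They were 87, 18 and 69 with median-ratio scaling, 61, 9 and 52 with quantile normalization, and 77, 20 and 57 when the scale left out mitochondrially encoded genes and the top 50 by level. Without the filter the counts were 1, 0 and 1, and that gene was not among the 140. They were 0, 0 and 0 without the trend, 201, 46 and 155 with robust hyperparameters, and 2, 1 and 1 with the spread of all 12 libraries. With the Huh7 controls added to the spread they were 153, 24 and 129. They were 17, 1 and 16 at an adjusted p under 0.01, and 33, 11 and 22 when the log2 change also had to reach 1 in size. Leaving out 1 library gave 90 to 477 in total, 23 to 176 up and 67 to 301 down.

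With the replicate letter as a block the counts were 47, 6 and 41, all 47 among the 140. The deviations of A1 and B1 from their group means correlated at 0.040 between control and WWL70 across genes, and no label says that the letters mark a shared batch, so the libraries were taken as unpaired.

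The comparison with lenvatinib present gave 1 call. It gave 0 with a pseudocount of 0.1, a TPM of at least 5, quantile normalization, the replicate block, the spread of all 12 libraries, array weights, an adjusted p under 0.01, and the spread of its own 4 libraries, which was added after seeing the data. Leaving out 1 library gave 0 to 8095. The difference between the changes gave 0 calls, 14 without the filter, and 0 to 6773 with 1 library left out. The cause of these shifts was not tested.

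Of the 58 named genes 45 passed, and 23 of these passed with each of the 4 libraries left out. Under each of the 3 scalings 12 named genes lost their call, among them APBA1, CCDC198, FGFR2, IER2, IGFBP4, KRT19, MT-CYB, NDRG1, NR4A1, PDGFRB and VTN, and with the block 24 did, CXCL1 and IFIT3 among them. None of the 45 reversed under an alternative run. Sign changes were seen in 4 uncalled genes: LIPE (−0.150 without control A1, −0.019 without WWL70 A1), ABHD5 (−0.14 without control B1), NAPEPLD (−0.035 without WWL70 A1) and DAGLA (0.013 without WWL70 B1). With 1 library left out the values ran from −0.150 to 0.4605 for LIPE, −0.14 to 0.205 for ABHD5 and −0.035 to 0.266 for NAPEPLD.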
